A study of Mus musculus with 6 samples.

Results

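Shared narrow H3K4me3 regions at divergent gene pairs were examined in a mouse T-cell progenitor line, Scid.adh.2C2, and a mouse B-cell progenitor line, 230-238. Scid.adh.2C2 was grown out of a pro-T tumor of CB17-Prkdc scid mice, and 230-238 is a progenitor B line transformed by Abelson virus, so each cell type was represented by 1 transformed line. Each line had 2 ChIP-seq libraries for H3K4me3 (histone H3 trimethylated at lysine 4) and 1 input library, none of them treated, and the authors combined the libraries of a line in 1 peak list. A divergent pair was a pair of protein-coding genes (GENCODE vM21 on GRCm38) on opposite strands, pointing away from each other, whose most upstream transcription start sites (TSSs) lay 1000 bp or less apart. Peaks of both lines were merged where they overlapped, and a region was counted when it held peaks of both lines, overlapped the span between the TSSs and had a summed peak width under 3000 bp in each line. This rule gave 388 regions at 358 pairs, out of 22625 merged regions in all and 10951 with peaks of both lines. The members were thus chosen by the presence and width of the peaks, and these values are given below as a description.

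H3K4me3 is deposited around active and poised promoters, where it flanks the nucleosome-depleted stretch on which the transcription machinery assembles. In a divergent pair 1 such stretch serves genes on both strands, so that the mark can spread into both genes at once. Pairs of this kind are common in mammals and are known for housekeeping genes with CpG-rich promoters, among them many genes of DNA repair and mitochondria. Narrow here is relative, because broad H3K4me3 domains are known to mark many cell identity genes.

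The stretch between the TSSs is printed for 8 member pairs, taken from the gene lists and pairs described further on, since the peaks of both lines are arranged around it. The reference sequence is from RefSeq GRCm38, plus strand, from the base after the TSS of the minus-strand gene to the base before the TSS of the plus-strand gene, and therefore lies upstream of both genes. Capitals mark matches, on either strand, to NRF1 (GCATGCGC), NFY (CCAAT), ETS (CCGGAAG), SP (GGGCGG), YY1 (AAGATGGCG), E-box (CACGTG), CRE (TGACGTCA) and TATA box (TATAAA) letters.
Uqcrq/Gdf9, chr11:53430832-53431022: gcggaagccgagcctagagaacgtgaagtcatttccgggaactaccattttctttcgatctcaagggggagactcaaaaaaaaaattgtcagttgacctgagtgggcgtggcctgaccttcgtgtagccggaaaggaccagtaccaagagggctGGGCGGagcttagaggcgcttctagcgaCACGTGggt
Mrpl32/Psma2, chr13:14613166-14613239: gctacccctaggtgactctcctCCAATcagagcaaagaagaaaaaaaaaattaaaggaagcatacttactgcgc
Cep128/Tshr, chr12:91384410-91384562: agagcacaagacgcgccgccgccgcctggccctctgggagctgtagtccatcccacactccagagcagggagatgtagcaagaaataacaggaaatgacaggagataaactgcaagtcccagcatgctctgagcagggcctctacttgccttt
Brca1/Nbr1, chr11:101551956-101552148: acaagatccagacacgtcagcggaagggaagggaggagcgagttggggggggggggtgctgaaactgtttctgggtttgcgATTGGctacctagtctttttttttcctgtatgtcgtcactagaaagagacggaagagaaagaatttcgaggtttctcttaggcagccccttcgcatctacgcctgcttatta
Gtf2f1/Gm17949, chr17:57011289-57011468: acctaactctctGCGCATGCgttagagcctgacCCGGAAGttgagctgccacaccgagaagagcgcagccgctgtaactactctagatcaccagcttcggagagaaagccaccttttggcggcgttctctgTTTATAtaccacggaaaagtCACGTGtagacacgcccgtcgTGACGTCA
Trmt6/Mcm8, chr2:132816056-132816140: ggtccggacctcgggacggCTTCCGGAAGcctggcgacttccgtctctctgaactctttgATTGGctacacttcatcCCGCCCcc
Rad54l/Pomgnt1, chr4:116123691-116123839: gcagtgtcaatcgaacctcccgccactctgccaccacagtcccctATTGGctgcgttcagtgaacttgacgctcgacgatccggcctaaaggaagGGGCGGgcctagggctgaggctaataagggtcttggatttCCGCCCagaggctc
Lsm7/Sppl2b, chr10:80855210-80855274: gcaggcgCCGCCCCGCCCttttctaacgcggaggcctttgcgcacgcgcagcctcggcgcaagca

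The CpG content of these spans ranged from 1 CpG in the 74 bases of Mrpl32/Psma2, a ratio of observed to expected CpG of 0.316, to 10 in the 65 bases of Lsm7/Sppl2b, a ratio of 1.20. The 180 bases of Gtf2f1/Gm17949 held 15, a ratio of 1.13. Gtf2f1/Gm17949 held 1 match each to NRF1, ETS, E-box, CRE and TATA box letters, Trmt6/Mcm8 held 2 overlapping ETS matches, and Cep128/Tshr held none of the 8 motifs. Of the 358 spans with a member region, 321 touched no other annotated gene, 31 touched another protein-coding gene and 7 a gene of another type.

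The peak lists matched the labels of both lines at most lineage markers. A peak within 2500 bp of an annotated TSS was present at 10 of 10 T cell progenitor markers in Scid.adh.2C2 and at 3 of 10 in 230-238. These 3 were Cd3d, Lck and Tcf7, and Cd3e, Thy1, Gata3 and Bcl11b were among those with none. Of 9 B cell progenitor markers, 8 had a peak in 230-238, all but Rag1, and 2 in Scid.adh.2C2, Vpreb1 and Rag1. Rag1 was on both the T and the B cell marker lists and was counted in each. The fold enrichment over local background at Vpreb1 was 29.9 in Scid.adh.2C2 and 21.2 in 230-238. In the same order it was 38.0 and 16.8 at Cd3d, 16.0 and 16.8 at Lck, and 36.0 and 15.2 at Tcf7. None of 5 markers of myeloid or other cells (Csf1r, Itgam, Cebpa, Gata1 and Mpo) had a peak in either line. The lists hold 15513 peaks for Scid.adh.2C2 and 19604 for 230-238. The deposited lists give neither read counts nor values per library, so the depth is unknown and no spread between replicates could be computed. All intervals are 95% intervals and cover counting error over regions, pairs or genes only. Neighboring genes and regions are not independent.

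Most divergent pairs carried peaks of both lines. There were 755 such pairs among 21938 protein-coding genes, made of 1489 genes, which is 6.79% of all protein-coding genes. Of the 755 pairs, 633 overlapped a region with peaks of both lines (83.8%, Wilson interval 81.0 to 86.3), 14 had peaks of Scid.adh.2C2 alone, 22 had peaks of 230-238 alone and 86 had none. No pair had separate peaks of the 2 lines without overlap. Counted by gene, the TSS lay in a region of both lines for 1209 of 1489 genes in divergent pairs (81.2%) and for 6782 of 20449 other protein-coding genes (33.2%), a difference of 48.0 percentage points (Newcombe interval 45.9 to 50.0). Among genes whose TSS lay in a peak of at least 1 line, the share in a region of both lines was 94.7% (1209 of 1277) in divergent pairs and 82.7% (6782 of 8200) elsewhere, a difference of 12.0 points (10.4 to 13.4).

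The members came from 358 of these 633 pairs (56.6%), and the other 275 overlapped shared regions that reached the width limit in at least 1 line. Of the 271 shared regions at the limit or above, 155 reached it in both lines, 104 in 230-238 alone and 12 in Scid.adh.2C2 alone. The widest members were Mtrr/Fastkd3 with 2994 bp, Trak2/Stradb with 2985 bp and Faap24/Cep89 with 2978 bp, each in 230-238. Just outside the limit were Arcn1/Ift46 and Fam53a/Gm9903, both with 3004 bp, and Ptcd2/Mrps27 with 3005 bp, also in 230-238.

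The TSSs of member pairs lay a median of 119 bp apart (quartiles 60 and 225.75 bp, range 1 to 969 bp), against 129 bp over all 755 pairs. The closest pairs were Bag4/Lsm1 at 1 bp, Dhrs1/Nop9 at 3 bp and Bag5/Apopt1 at 4 bp, and Smim7/Tmem38a at 967 bp and Haghl/Ccdc78 at 907 bp were among the most distant. The share of pairs with peaks of both lines was 87.6% (80.8 to 92.2) at 0 to 50 bp, 86.4% at 51 to 100 bp, 82.5% at 101 to 200 bp, 85.5% at 201 to 400 bp and 73.6% (63.7 to 81.6) at 401 to 1000 bp. The last bin was lowest, with an interval that overlapped those of the other 4. The share of narrow regions among shared pairs lay between 52.4% and 63.7% in all 5 bins, with overlapping intervals.

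**Figure D1:**
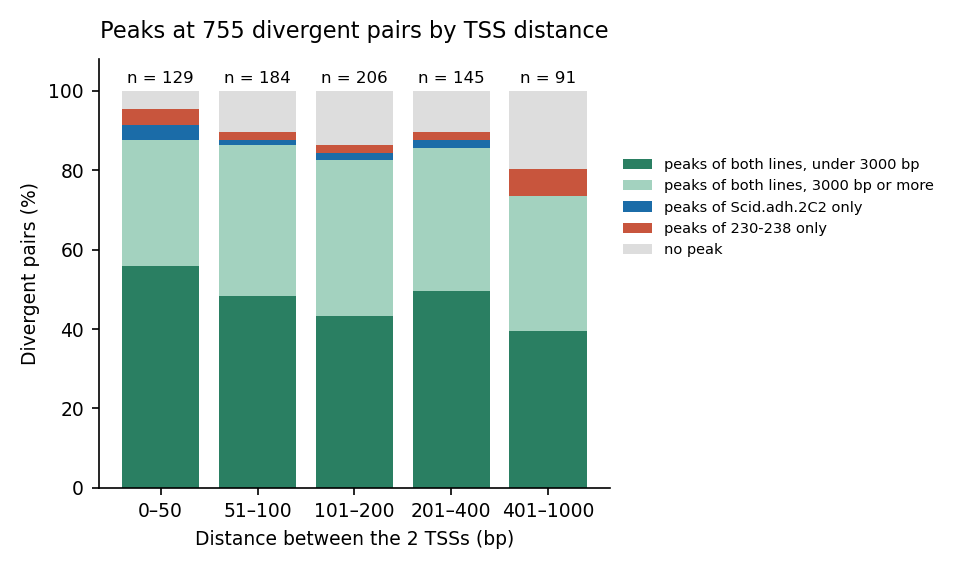
Divergent pairs by the distance between their TSSs (x axis, bp), as percent of the pairs in each bin (y axis), stacked by peak status; n is the number of pairs in a bin. Pairs with peaks of both lines (both greens) make up 73.6% to 87.6% of each bin, and pairs with no peak are most frequent, at 19.8%, in the bin of 401 to 1000 bp.

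The highest point of the mark rarely lay in the middle of a pair. Summits were examined in the 295 members that were the single region of a single pair, where the summit is the highest point of the strongest peak. In Scid.adh.2C2, 156 summits lay inside the minus-strand gene, 134 inside the plus-strand gene and 5 between the TSSs (1.69%, 0.726 to 3.91). In 230-238 the counts were 145, 142 and 8 (2.71%, 1.38 to 5.26). With pairs at 200 bp or less, no summit lay between the TSSs in either line. The span itself was short, at a median of 4.37% of the merged region. Summits inside a gene lay a median of 334 bp past its TSS in Scid.adh.2C2 (interval 293 to 373) and 367 bp in 230-238 (345 to 390).

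At most other shared narrow promoters the summit also lay inside the gene. Over 4095 of them with a single protein-coding TSS, the summit lay downstream of the TSS in 86.1% in Scid.adh.2C2, at a median of 371 bp (359 to 382), and in 84.3% in 230-238, at a median of 431 bp (418 to 442). The summits of members were nearer to the TSS in 230-238, where the intervals did not overlap, while the intervals overlapped in Scid.adh.2C2. The merged regions of the 4095 other promoters reached a median of 662 bp upstream and 1450 bp downstream of the TSS. The member regions reached a median of 1131 bp (1081 to 1176) into the minus-strand gene and 1179 bp (1111 to 1237) into the plus-strand gene, and 227 of 295 (76.9%, 71.8 to 81.4) reached at least 500 bp into both. At the other shared narrow promoters, 68.7% (67.2 to 70.1) of the regions reached at least 500 bp upstream of the TSS.

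**Figure D2:**
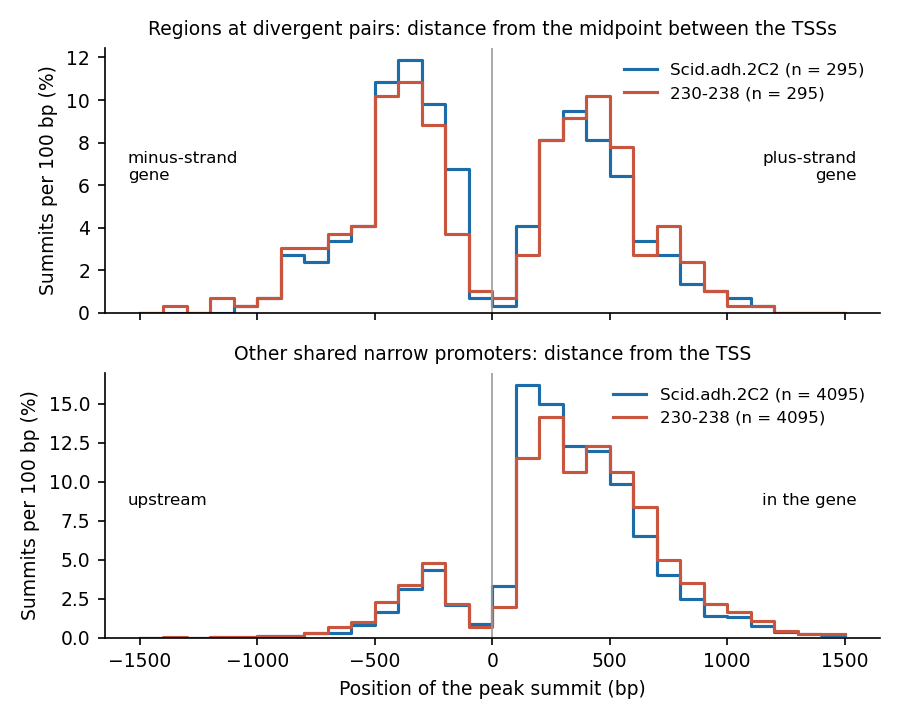
Position of the peak summit in bins of 100 bp (x axis), as percent of the summits of a line (y axis), for 295 member regions relative to the midpoint between the TSSs (top) and for 4095 other shared narrow promoters relative to their TSS (bottom); summits farther than 1500 bp are not drawn. The members have a mode on each side of a near-empty center, and the other promoters have a main mode inside the gene and a smaller one upstream.

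The side that held the summit was mostly the same in both lines. In 245 of 295 members (83.1%, 78.4 to 86.9) both summits lay on the same side of the midpoint, and in 189 (64.1%, 58.4 to 69.3) they lay within 100 bp of each other, with a median distance of 54 bp (48 to 65). Over the other shared narrow promoters both summits lay on the same side of the TSS in 89.2% (88.2 to 90.1), a higher share than at members, while 63.5% (62.03 to 65.0) lay within 100 bp of each other and the median distance was 52 bp. The summit moved from the minus-strand gene in Scid.adh.2C2 to the plus-strand gene in 230-238 in 29 members and the other way in 18. Among members with the summit inside a gene, its side was compared with the side where the region reached farther. They were the same in 71.7% in Scid.adh.2C2 (66.3 to 76.6) and in 70.7% in 230-238 (65.2 to 75.7). The merged region reached both TSSs in 264 of 295 members. In the other members a summit inside a gene lay on the longer side by construction. Their side of the midpoint was also largely fixed in advance. These members are counted in the 71.7%, 70.7% and 83.1%, so these shares are partly set by the extent of the regions. Cdc27/Myl4 shows a lopsided region that reached into both genes. Cdc27 encodes a subunit of the anaphase-promoting complex and Myl4 a myosin light chain. The region reached 2066 bp into Cdc27 and 665 bp into Myl4, and the summit lay 875 bp inside Cdc27 in Scid.adh.2C2 and 853 bp inside it in 230-238. Zfp91/Lpxn leaned to Lpxn, which encodes the adaptor leupaxin, with 450 bp inside Zfp91 and 2183 bp inside Lpxn. Tomm6/Frs3, with TSSs 644 bp apart, was an exception in which both summits lay between the TSSs. Tomm6 encodes a subunit of the mitochondrial outer membrane translocase.

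In most member pairs a single peak covered both TSSs. This was the case for 270 of 358 pairs in Scid.adh.2C2 (75.4%, 70.7 to 79.6) and for 243 in 230-238 (67.9%, 62.9 to 72.5). Separate peaks on both sides, each reaching past its TSS, were found at 49 pairs in Scid.adh.2C2 (13.7%, 10.5 to 17.6) and at 78 in 230-238 (21.8%, 17.8 to 26.4), with median gaps of 135 and 140 bp between the peaks. Uqcrq/Gdf9, the pair of a respiratory complex subunit and an oocyte growth factor, had 1 peak over both TSSs in Scid.adh.2C2 and separate peaks 105 bp apart in 230-238. The arrangement was the same in both lines at 312 pairs (87.2%, 83.3 to 90.2). Separate peaks were more frequent above 200 bp than at 100 bp or less. They were found at 0 of 72 pairs at 0 to 50 bp in Scid.adh.2C2, with an upper Wilson bound of 5.07%, and at 28 of 72 (38.9%, 28.5 to 50.4) at 201 to 400 bp. In 230-238 the counts in these bins were 3 of 72 (4.17%) and 38 of 72 (52.8%, 41.4 to 63.9). At 401 to 1000 bp the shares were lower than at 201 to 400 bp, with overlapping intervals, at 12 of 36 (33.3%, 20.2 to 49.7) in Scid.adh.2C2 and 15 of 36 (41.7%, 27.1 to 57.8) in 230-238.

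A further 31 pairs had, in both lines, a peak that overlapped the span and reached past 1 TSS only. At 24 of them another peak of each line lay within 500 bp past the other TSS, so both genes were marked and the gap included a TSS. Mrpl32/Psma2, a mitochondrial ribosomal protein and a proteasome subunit, was such a pair. At 6 pairs neither line had a peak there, among them Ccdc146/Fam185a, Haghl/Ccdc78, Sirt1/Dnajc12, Sirt6/Ankrd24 and Tctn3/Entpd1. At Sirt6/Ankrd24 the peak lay on the side of Sirt6, a deacetylase gene, and at Sirt1/Dnajc12 it lay on the side of Dnajc12 by the most upstream annotated TSSs.

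At 42 pairs the mark was split so that each gene had a member region of its own. The gap between these flanking regions was 34 to 356 bp (median 131.5 bp), and the TSSs were 153 to 691 bp apart (median 296.5 bp). The same gene had the region of higher fold enrichment in both lines at 29 of 42 pairs (69.0%, 54.0 to 80.9). Gm45902/Cdnf and Hspa14/Cdnf were counted with the same regions, as were Rfxank/Borcs8 and Rfxank/Mef2b. These pairs are all among the 29, so the interval is too narrow. At Brca1/Nbr1, on chromosome 11, the Brca1 side had a fold enrichment over local background of 28.4 in Scid.adh.2C2 and 22.4 in 230-238, and the Nbr1 side had 36.3 and 23.6. Brca1 acts in homologous recombination and Nbr1 is an autophagy receptor. The Nbr1 side was thus the higher one in both lines, by a small margin in 230-238. At Atm/Npat, on chromosome 9, the Atm side had 33.3 in Scid.adh.2C2 and 20.7 in 230-238, and the Npat side had 32.2 and 29.9. Atm is the kinase that signals DNA double-strand breaks and Npat an activator of histone genes. The order of the sides differed between the lines, but the margin in Scid.adh.2C2 was small. At Nop14/Grk4 the side of Nop14, a ribosome biogenesis factor, was higher in both lines, with 28.2 against 25.2 in Scid.adh.2C2 and 24.4 against 16.7 in 230-238.

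Peak height varied widely among the members. Fold enrichment had a median of 27.9 in Scid.adh.2C2 (range 6.004 to 48.0) and 21.9 in 230-238 (6.59 to 35.8). Since the lists were called separately, heights were compared between lines only as the percentile of a peak within its own list. The median percentile was 73.7 (70.3 to 76.5) in Scid.adh.2C2 and 75.9 (72.7 to 78.1) in 230-238. The other 4348 shared narrow promoter regions had medians of 69.5 (68.7 to 70.5) and 73.1 (72.2 to 73.9), and the intervals of the 2 sets overlapped. By the percentile of the −log10 q-value of a peak, members stood higher and the intervals did not overlap. In Scid.adh.2C2 these medians were 75.3 (72.5 to 78.6) in members and 67.7 (66.8 to 68.7) in the other regions. In 230-238 they were 77.6 (74.2 to 80.6) and 72.6 (71.7 to 73.2). Spearman's rho between the fold enrichment percentiles of the lines was 0.32 over the 388 members and 0.30 over the other narrow promoters, a description across regions of the same lists.

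Among the highest members by the mean percentile of both lists were Cptp/Ints11, Rbbp4/Zbtb8os, Rer1/Morn1 and Uqcrq/Gdf9. Cptp/Ints11, a lipid transfer protein and the catalytic subunit of Integrator, had a fold enrichment of 48.0 in Scid.adh.2C2 and 35.8 in 230-238, above the 99th percentile of both lists. Rbbp4/Zbtb8os had separate peaks on both sides in each line, and its member region, on the side of Zbtb8os, had 41.5 and 31.2. The side of Rbbp4, a histone chaperone gene, lay in another region, with 32.6 and 20.5, that was over the width limit in 230-238 with 3363 bp. The member regions of these pairs were high in both lines. The lowest members were Tpcn1/Iqcd (6.004 and 6.95, the smaller of its regions), Hist1h2ac/Hist1h2bc (12.5 and 6.59), Cbln3/Khnyn (11.5 and 8.35), Klc3/Ckm (8.44 and 15.015) and Lrrc46/Mrpl10 (17.8 and 9.92, the Lrrc46 side). Ckm encodes muscle creatine kinase and Cbln3 a cerebellin of the cerebellum. The Mrpl10 side of the last pair had 24.6 and 18.6.

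Some members stood high in 1 list and lower in the other. The pairs placed highest in Scid.adh.2C2 relative to 230-238 were Chpf/Tmem198, at the 87.2 and 35.8 percentiles, Lrrc29/Tmem208, at 87.9 and 37.1, Mdh1b/Fastkd2, at 77.6 and 28.8, and Vta1/Nmbr, at 89.4 and 42.0. Vta1 acts in endosomal sorting, Fastkd2 in mitochondrial RNA metabolism and Chpf in chondroitin synthesis. Those placed highest in 230-238 were Pecr/Tmem169, at 33.9 in Scid.adh.2C2 and 92.7 in 230-238, Acad8/Thyn1, at 36.8 and 94.7, Gtf2e1/Rabl3, at 35.7 and 92.6, and Psmd10/Atg4a, at 42.4 and 94.0. Pecr and Acad8 are enzymes of fatty acid and valine metabolism, Gtf2e1 a subunit of TFIIE, and Psmd10 a proteasome assembly factor. With 1 list per line, these differences have no replicate check.

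**Figure D3:**
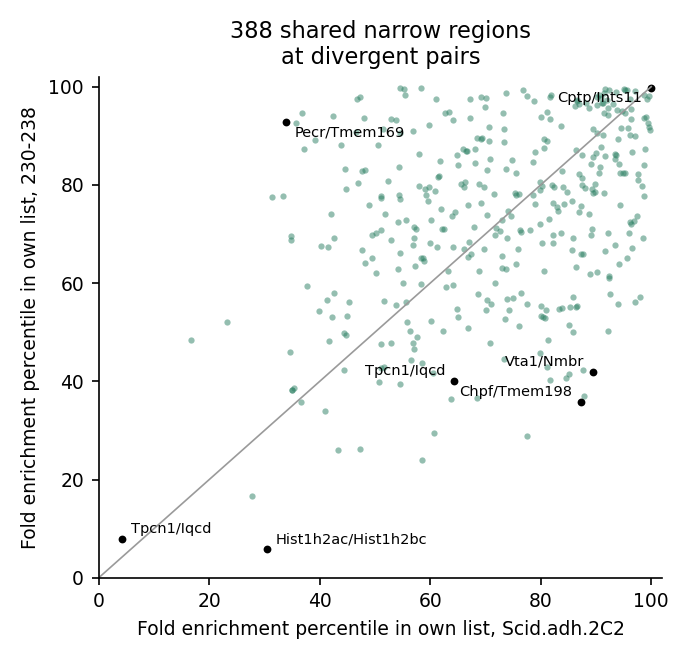
Fold enrichment percentile of the 388 member regions in the list of Scid.adh.2C2 (x axis) and of 230-238 (y axis), with the line of equal percentiles; black points are named pairs. Most points lie above the 50th percentile in both lists, and Pecr/Tmem169 and Chpf/Tmem198 lie near opposite corners.

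Widths of members were close in both lines. The median summed width was 2099.5 bp (1999 to 2147) in Scid.adh.2C2 and 2186.5 bp (2093 to 2273) in 230-238, with a median log2 ratio of -0.07 (-0.09 to -0.05), and Spearman's rho between the lines was 0.81. The other shared narrow promoters had medians of 1879 and 2059 bp and a median log2 ratio of -0.10 (-0.11 to -0.09). Members were wider than these by this comparison, but with a limit of 2000 bp the order turned, with medians of 1327 bp against 1511.5 bp in Scid.adh.2C2 and 1480 bp against 1622 bp in 230-238.

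A width at least 1.5-fold larger in Scid.adh.2C2 was found at 4 of 388 members (1.03%), beside 2.07% (1.69 to 2.54) of the other 4348 shared narrow promoter regions and 2.09% of all 6925 shared promoter regions. A width at least 1.5-fold larger in 230-238 was found at 17 members (4.38%, 2.75 to 6.90), beside 7.68% (6.93 to 8.51) of the other shared narrow promoter regions and 13.5% of all shared promoter regions. The width limit bounds the ratio a member can take, so these shares are given as description. Named after their values were seen, the 4 were Hist1h2ak/Hist1h2bn (1880 bp in Scid.adh.2C2 and 373 bp in 230-238), Hist1h2ac/Hist1h2bc (2175 and 772 bp), Hist1h2bf/Hist1h2ad (2546 and 910 bp) and Ifit1bl2/Ifit1 (2874 and 1459 bp), so 3 of them were pairs of replication-dependent histone genes and the other a pair of interferon-induced genes. The largest ratio the other way was at Nup98/Pgap2, with 1114 bp in Scid.adh.2C2 and 2900 bp in 230-238. Nup98 encodes a nuclear pore protein.

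**Figure D4:**
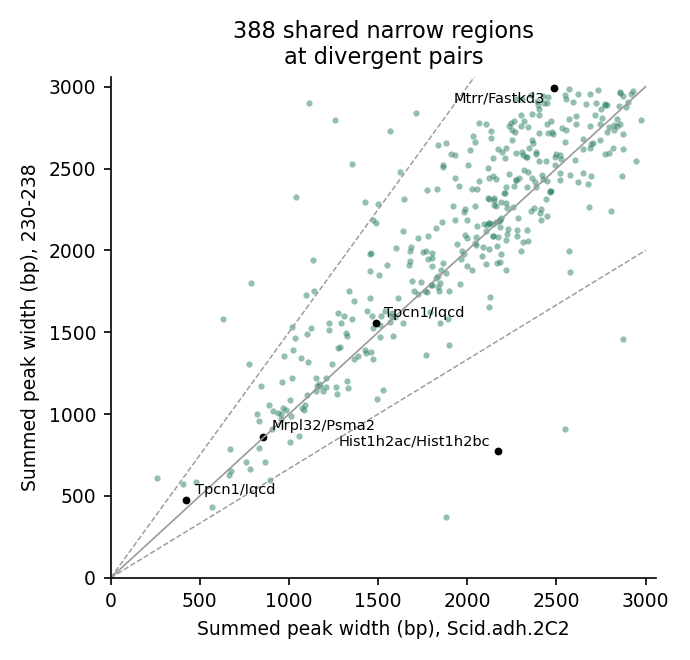
Summed peak width of the 388 member regions in Scid.adh.2C2 (x axis, bp) and 230-238 (y axis, bp), with the line of equal widths and dashed lines at a 1.5-fold difference; black points are named pairs. Most points lie near the line of equal widths, and Hist1h2ac/Hist1h2bc lies below the lower dashed line.

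Genes of DNA repair were frequent among the pairs. Genes of pairs with a member region made up 3.22% of all protein-coding genes (706 of 21938), and 8.41% of the 7991 protein-coding genes with the TSS in a region of both lines. Of 80 DNA repair genes, 15 belonged to such a pair (18.8%, 11.7 to 28.7): Atm, Brca1, Chek2, Ercc8, Fancd2, Lig4, Mutyh, Nthl1, Palb2, Pms2, Rad51c, Rad54l, Xpc, Xrcc1 and Xrcc3. They cover double-strand break signaling and repair (Atm, Chek2, Brca1, Palb2, Rad51c, Rad54l, Xrcc3, Lig4), crosslink repair (Fancd2), base excision and single-strand break repair (Mutyh, Nthl1, Xrcc1), mismatch repair (Pms2) and nucleotide excision repair (Xpc, Ercc8). Wide shared regions held 8 of the 80, beside 542 of all 21938 protein-coding genes. In any divergent pair were 23 of the 80 (28.8%, 20.0 to 39.5), beside 6.79% of all protein-coding genes. Rad54l/Pomgnt1 had a fold enrichment of 30.3 in Scid.adh.2C2 and 25.7 in 230-238, with 1 peak over both TSSs in each line. Of 61 DNA replication genes, Mcm8, Pole3 and Rpa3 (4.92%, 1.69 to 13.5) were at a member, an interval that included the 3.22% of all protein-coding genes. In any divergent pair were 11 of the 61 (18.03%, 10.4 to 29.5), an interval above the 6.79% of all protein-coding genes. Wide shared regions held 7 of the 61. Mcm4/Prkdc was one of the wide pairs, with 3007 bp in Scid.adh.2C2 and 3186 bp in 230-238. Prkdc is the DNA end-joining kinase gene that is mutated in scid mice, and a peak at its promoter says nothing of the mutation.

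Genes of mitochondria were compared with the 3.22% of all protein-coding genes that were at members. This share lay below the intervals of mitochondrial ribosomal protein and respiratory chain genes and inside that of import and chaperones. The intervals of these lists included the 8.41% above, but that share covers only genes with the TSS in a region of both lines. Of 78 mitochondrial ribosomal protein genes, 10 belonged to a member pair (12.8%, 7.12 to 22.0), as did 10 of 94 respiratory chain genes (10.6%, 5.88 to 18.5). Of 28 genes of import and chaperones, 1 did (3.57%, 0.633 to 17.7), Tomm6. In any divergent pair were 18 of the 78 (23.1%, 15.1 to 33.6), 20 of the 94 (21.3%, 14.2 to 30.6) and 5 of the 28 (17.9%, 7.88 to 35.6). The share over all protein-coding genes was 6.79%. Wide shared regions held 8, 9 and 4 genes of these lists. Mrps12/Sars2, a pair of a mitochondrial ribosomal protein and the mitochondrial seryl-tRNA synthetase on chromosome 7, had a fold enrichment of 25.9 in Scid.adh.2C2 and 19.5 in 230-238. Of 37 aminoacyl-tRNA synthetase genes, 2 were at members (5.41%, 1.495 to 17.7), Sars2 among them. The member region of Mrpl32/Psma2, on the side of Psma2, stood at the 95.1 percentile in Scid.adh.2C2 and 99.4 in 230-238. Its widths of 857 and 863 bp leave out the other peak of each line past the TSS of Mrpl32. Atp5c1/Kin, an ATP synthase subunit and a DNA-binding protein, was above the width limit, with 3027 bp in Scid.adh.2C2 and 3692 bp in 230-238.

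Genes of the general transcription machinery were at members in 13 of 104 cases (12.5%, 7.45 to 20.2), among them Gtf2e1, Gtf2f1, Polr1c, Polr3a and Taf6. Cilium genes were at members in 9 of 58 cases (15.5%, 8.38 to 26.9), with Cep128/Tshr at the 94.7 and 95.1 percentiles. Tshr encodes the thyrotropin receptor of the thyroid, and the region reached 895 bp into it and 1415 bp into Cep128, with both summits inside Cep128. Splicing factors were at members in 6 of 47 cases (12.8%, 5.98 to 25.2), proteasome genes in 4 of 50 (8.00%, 3.15 to 18.8) and ribosome biogenesis genes in 2 of 26 (7.69%, 2.14 to 24.1). Cytosolic ribosomal protein genes were at a member in 1 of 83 cases (1.20%, 0.213 to 6.51), Rps24, which shares its region with Polr3a, and 6 more were at wide shared regions. Zinc finger genes named Zfp were at members in 7 of 394 cases (1.78%, 0.863 to 3.62). The 3.22% of all protein-coding genes that were at members lay below the intervals of transcription machinery, cilium and splicing genes. It lay inside the intervals of proteasome, ribosome biogenesis, cytosolic ribosomal protein and Zfp genes.

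Replication-dependent histone genes differ from the other lists in that they are clustered and nearly identical in sequence, so reads may not be assigned to 1 copy and their values are uncertain. Of 67, 12 belonged to member pairs (17.9%, 10.6 to 28.7), beside 3.22% of all protein-coding genes. All 12 were in the Hist1 cluster on chromosome 13, while 31 of 67 had the TSS in a region of both lines. Hist1h2ac/Hist1h2bc had a fold enrichment of 12.5 in Scid.adh.2C2 and 6.59 in 230-238, and Hist1h2bh/Hist1h3f was split, with 18.2 and 15.4 on the side of Hist1h2bh and 26.4 and 23.02 on the side of Hist1h3f.

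Lineage genes were rare. Of 213 matched genes of the T-lineage list of the study, 5 were in any divergent pair (2.35%, 1.01 to 5.38) and 1, Lpxn, was at a member (0.469%, 0.0829 to 2.61). Of 232 matched genes of its B-lineage list, 3 were in a divergent pair (1.29%, 0.441 to 3.73) and 2, Myl4 and Eaf2, were at members (0.862%, 0.237 to 3.09). Both shares in divergent pairs lay below the 6.79% of all protein-coding genes. Among lineage genes with the TSS in a region of both lines, 2 of 49 T-lineage and 2 of 69 B-lineage genes were in a divergent pair, against 15.1% of all such genes. Zfp91/Lpxn stood at the 79.8 percentile in Scid.adh.2C2 and 45.8 in 230-238, and Eaf2/Golgb1 at 80.1 and 79.8. Eaf2 is an elongation factor partner. Cdc27/Myl4 stood at 96.3 and 72.0.

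Promoter sequence of the member pairs was richer in CpG than that of other shared narrow promoters. Over 300 bases (250 before and 50 after the TSS), the median ratio of observed to expected CpG was 0.841 (0.828 to 0.858) in the 706 genes of member pairs, 0.764 (0.754 to 0.770) in 4609 genes at other shared narrow regions and 0.525 over all protein-coding genes. The GC content was 62.3%, 59.0% and 55.0%. Genes of shared wide pairs had a higher CpG ratio still, at 0.898 (0.879 to 0.914).

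The letters searched on both strands were the 8 above and ZNF143 (ACTACAATT), E2F (TTTGGCGC or TTTCCCGC), RUNX (TGTGGTT), the motif of GATA factors (AGATAA) and EBF1 (TCCCNNGGG), and no motif contains another. ETS letters, the core bound by ETS family factors, were found in 32.9% of member promoters (29.5 to 36.4), 22.9% of other shared narrow promoters and 10.8% of all promoters. The difference between the first 2 was 9.99 points (Newcombe interval 6.41 to 13.7). SP letters, the GC box of Sp/Klf factors, were in 73.8%, 63.6% and 43.0%, a difference of 10.2 points (6.54 to 13.6). NFY letters, the CCAAT box, were in 47.0%, 41.0% and 39.0%, a difference of 6.06 points (2.14 to 10.0). YY1 letters were in 6.09% against 3.78% of other shared narrow promoters, and E2F letters in 5.10% against 2.78%, with intervals of the difference above 0 for both (0.668 to 4.39 and 0.836 to 4.25 points). TATA box letters were less frequent in member promoters, in 4.25% against 6.64% (-3.86 to -0.51 points). In promoters of shared wide pairs ETS letters were in 27.5%, SP letters in 67.7% and NFY letters in 40.0%. Members stood above these by 5.37 points (0.215 to 10.4), 6.08 points (1.01 to 11.2) and 6.99 points (1.43 to 12.5). YY1 letters were in 7.01% of the promoters of wide pairs, E2F letters in 3.87% and TATA box letters in 3.32%. For these the intervals of the difference from members included 0 (-3.83 to 1.82, -1.19 to 3.53 and -1.32 to 3.06 points). With a width limit of 2000 bp, YY1 and E2F letters were each in 3.52% (1.80 to 6.80) and TATA box letters in 6.17% (3.71 to 10.1) of member promoters, and with TSSs at 200 bp or less NFY letters were in 41.9% (37.7 to 46.3).

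For NRF1, E-box, CRE, ZNF143, RUNX, GATA and EBF1 letters the interval of the difference from other shared narrow promoters included 0. RUNX, GATA and EBF1, factors of lymphoid development, had matches in 2.83%, 4.96% and 6.52% of member promoters. The 13 intervals were not adjusted for their number. The windows of both genes shared bases in 332 of 358 pairs, so matches there were counted for both genes and the intervals are too narrow. With 1 window of 300 bases per pair, centered between the TSSs, the differences were 11.2 points (6.33 to 16.4) for ETS, 9.29 (4.27 to 13.9) for SP, 7.64 (2.31 to 13.0) for NFY, 2.65 (0.463 to 5.72) for YY1 and 3.09 (1.03 to 6.06) for E2F, and for the TATA box -1.61 (-3.59 to 1.25), an interval that included 0. GC content moved with the SP share, and its part was not tested.

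**Figure D5:**
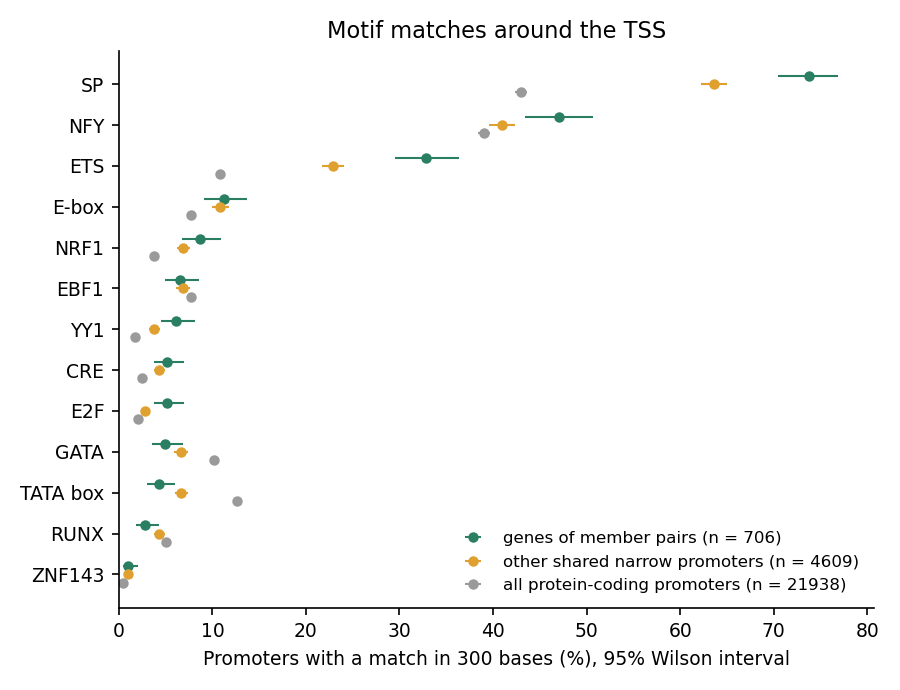
Percent of promoters with a match in 300 bases around the TSS (x axis) for 13 motifs (y axis), with 95% Wilson intervals, for genes of member pairs, other shared narrow promoters and all protein-coding promoters. ETS, SP and NFY letters stand apart to the right in member promoters, and TATA box letters are most frequent over all promoters.

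Textbook bidirectional pairs fell in different classes by the rule. Brca1/Nbr1, Atm/Npat and Mrps12/Sars2 were members, and Mcm4/Prkdc and Atp5c1/Kin were shared and wide. At Hspd1/Hspe1 and Surf1/Surf2 the annotated 5' ends overlapped, by 111 and 163 bp, so that they were no divergent pairs by the rule. Both TSSs of Surf1/Surf2 lay in a region with peaks of both lines. At the chaperonin genes Hspd1/Hspe1, such a region ran from 55088232 to 55090718 on chromosome 1. It held the annotated TSS of the minus-strand gene Hspd1, at 55088243, near its edge. The annotated TSS of the plus-strand gene Hspe1, at 55088132, lay just outside, so the region extended downstream of it, on the side of Hspe1. This region had widths of 2038 and 2487 bp and fold enrichments of 27.0 and 22.1.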

How the data were processed

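H3K4me3 ChIP-seq of 2 libraries and 1 input per line was analysed from the 1 peak list per line that the authors deposited. Per the methods and labels, the authors trimmed reads with Trim Galore (0.6.7), mapped them to GRCm38 with Bowtie2 (2.4.4), called narrow peaks with MACS2 (2.2.7.1) against input at a q-value of 0.05 and kept the optimal IDR set at 0.05. The deposited columns give the IDR score (at most 1000), the fold enrichment ratio, the −log10 q-value and the summit of each peak. Values per library were not used here, and library pooling hides the replicate spread.

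Peaks of both lists were merged at an overlap of 1 bp or more. Widths were summed per line, and height and summit were taken from the peak of highest fold enrichment. Other shared promoter regions held the TSS of a protein-coding gene in no divergent pair (6266 regions, 4348 of them under 3000 bp). Sequences were read with pysam 0.24.0. Shares have Wilson intervals, differences of shares Newcombe intervals and medians binomial order-statistic intervals. No p-value was computed, because each line has 1 list. Methods were tested on simulated data with planted peaks. The lineage lists of the study were matched by symbol or RefSeq synonym (213 of 233 T-lineage and 232 of 250 B-lineage symbols matched a protein-coding gene). The other 14 gene lists were written by hand. Members and lists were chosen with earlier results of these data known. Pairs named are those highest and lowest by mean percentile, with the largest percentile differences, widest, nearest and farthest apart, the highest of each list, all with a lineage gene and textbook pairs. Some pairs that this rule names are not reported here. Histone width differences and pairs marked on 1 side were chosen after their values were seen. Alternatives were the TSS distance, width limit, peak threshold, overlap, TSS choice, sequence window and height measure.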

Additional observations from a re-analysis of the deposited data

How the results depend on the processing

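No paired analysis was possible because each line has 1 combined peak list and no result comes from a test. Leaving out a replicate was not possible for the same reason. Of 96 values recomputed for the main results, 71 stayed within 1.5 times (counts) or within the interval of the main value and 25 moved. The alternatives' own construction, fewer or more pairs and regions, changed the counts. The 388 regions became 252 with TSSs at 200 bp or less, 139 under 2000 bp and 583 with any annotated TSS, and the 95 genes of the 14 function lists became 153 under 4000 bp. Pairs with peaks of both lines came to 80.4% when a peak of each line had to overlap the span itself and 80.8% with any TSS. For Scid.adh.2C2 and 230-238, median widths were 2205 and 2360.5 bp at 200 bp or less, 1327 and 1480 bp under 2000 bp, and 2330 and 2579 bp under 4000 bp, where the median log2 ratio was -0.10. Under 2000 bp the median percentiles were 66.9 and 71.0, and both summits were on the same side in 100% of members. Summits between the TSSs made up 0.714% and 0.357% at 500 bp or less, 0% and 0% at 200 bp or less, 4.35% in Scid.adh.2C2 under 2000 bp, and 6.86% and 5.88% when 5' ends overlapping by up to 500 bp also counted. The CpG ratio was 0.859 at 200 bp or less and 0.828 under 2000 bp. For these shifts in widths, summits and CpG the cause was not tested. Of 52 motif shares recomputed, 13 moved outside their interval, among them ETS, at 38.3% with TSSs at 200 bp or less and 26.0% under 2000 bp. Depth is unknown, so a pair with no peak in a line is not shown to lack the mark.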

Other observations

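Divergent pairs with peaks of 1 line alone were few and varied in peak height. The 14 pairs of Scid.adh.2C2 alone had a median fold enrichment of 23.7 (60.1 percentile of its list), and the 22 pairs of 230-238 alone had 22.6 (78.7 percentile). All of them exceeded 10-fold enrichment, and the lowest were Anxa5/1810062G17Rik in 230-238, with 10.1 at the 27.1 percentile, and Wdr54/1700003E16Rik and Hjurp/Trpm8 in Scid.adh.2C2, with 10.5 and 11.0 at the 24.9 and 26.2 percentiles. In Scid.adh.2C2 alone, Rad9b/Vps29 had 41.8, at the 99.0 percentile, Setdb2/Cab39l had 34.6, and Il17rb/Chdh had 31.3 with 9117 bp of summed width. Rad9b is a paralog of a checkpoint clamp subunit, Setdb2 a histone methyltransferase family member and Il17rb a cytokine receptor. Trip13/Brd9, Gatc/Triap1 and Uqcr10/Zmat5, which hold genes of mitosis, mitochondrial translation and the respiratory chain, were also in this group, with 25.2, 29.1 and 21.02.

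In 230-238 alone, Ppp1r15a/Plekha4 had a fold enrichment of 36.5, at the 99.9 percentile, Washc5/Nsmce2 had 33.7 and Dtl/Ints7 had 31.6. Dbf4/Slc25a40 had 26.9 and Srsf11/Lrrc40 25.7. Ppp1r15a acts in the integrated stress response, Nsmce2 is a SUMO ligase of the SMC complex, Dtl and Dbf4 act in DNA replication and Srsf11 in splicing. Lcp1, a leukocyte actin-bundling protein, was in this group with Lrrc63, at 12.9. Values per library were not used here, so it was not tested whether the other line had peaks there that the combination of its libraries left out.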
